A study of Rattus norvegicus with 60 samples.

Results

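Voltage-gated sodium channel subunits were represented on the arrays by 10 probe sets of 8 genes. A probe set is a group of short oligonucleotides read out together as 1 value for a transcript. The genes were Scn1a, Scn2a, Scn3a, Scn8a and Scn9a, which encode pore-forming alpha subunits, and Scn2b, Scn3b and Scn4b, which encode auxiliary beta subunits. They were all the probe sets, among the 31042 of the deposited table, for which the platform annotation gave one of these symbols alone, out of 14217 genes named by such a probe set. Scn2b and Scn3b had 2 probe sets each and the other 6 genes had 1. The rule itself uses no measured value, but the genes were picked with earlier results of these data known.

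RNA came from the frontal cortex of 60 adult male Long-Evans rats, taken 6 h after a single oral gavage, with 1 array per rat and no pooling of animals. Deltamethrin, a pyrethroid insecticide with an α-cyano group, was given at 0.3, 1 or 3 mg/kg (8 rats each). Permethrin, a pyrethroid without that group, was given at 1, 10 or 100 mg/kg (8 rats each), and 12 rats received the corn oil vehicle that all the other rats received as well. The lowest dose of each compound lay below the behavioral no-observed-adverse-effect level, the middle dose at it and the highest dose above it. The tissue was a block of cortex and not a sorted population, so every value is a mix over all the cells in the block.

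Sodium channels open on depolarization and carry the inward current of the action potential. The alpha subunit alone forms the pore and the gates, while beta subunits modify gating, bring channels to the membrane and act as adhesion molecules. Pyrethroids bind the alpha subunit and slow its closing, which prolongs the current and drives repetitive firing, so the transcripts described here encode the molecular target of both compounds.

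By the RefSeq gene order, Scn3a and Scn2a are direct neighbors on chromosome 3, Scn2a and Scn1a have 4 protein-coding genes between them, and Scn1a and Scn9a are direct neighbors. Scn2b and Scn4b are direct neighbors on chromosome 8, with 63 protein-coding genes between Scn3b and Scn2b. Scn8a lies on chromosome 7. Promoter sequences of 300 bases (250 before and 50 after the annotated start, RefSeq, GRCr8) were matched for 6 of the 8 genes, all but Scn1a and Scn3b. Those of 4 genes are shown, whose levels differed between sets of arrays described further on. Compared with set C, Scn2a was lower in set A by 1.15 on the log2 scale, Scn3a by 1.04 and Scn8a by 0.25. Scn4b was higher by 0.42. The choice is not exhaustive, since the brighter Scn2b probe set was higher by 0.25 and its window is not shown. A link between promoter letters and these differences was not tested. Capitals mark any match, on either strand, to 6 motifs. These were the TATA box (TATAAA), the GC box (GGGCGG), the CCAAT box (CCAAT), the core of the cyclic AMP response element (TGACG), and the left part (CAGCACC) and right part (GGACAG) of the element bound by the repressor REST.
Scn2a, chr3:70710706-70711005, plus strand: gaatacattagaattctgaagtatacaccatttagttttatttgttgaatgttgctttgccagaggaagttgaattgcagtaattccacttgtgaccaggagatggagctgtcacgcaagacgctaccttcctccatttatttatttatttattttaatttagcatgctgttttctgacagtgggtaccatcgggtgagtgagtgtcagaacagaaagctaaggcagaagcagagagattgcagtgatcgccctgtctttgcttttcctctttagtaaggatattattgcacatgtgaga
Scn3a, chr3:70666149-70666448, minus strand: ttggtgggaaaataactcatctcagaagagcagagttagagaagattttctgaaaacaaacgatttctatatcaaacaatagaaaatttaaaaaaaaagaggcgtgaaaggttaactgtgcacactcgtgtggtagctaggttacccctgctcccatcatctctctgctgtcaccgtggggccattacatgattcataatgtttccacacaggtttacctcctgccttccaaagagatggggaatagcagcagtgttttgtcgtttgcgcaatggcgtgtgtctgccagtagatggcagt
Scn8a, chr7:133860977-133861276, plus strand: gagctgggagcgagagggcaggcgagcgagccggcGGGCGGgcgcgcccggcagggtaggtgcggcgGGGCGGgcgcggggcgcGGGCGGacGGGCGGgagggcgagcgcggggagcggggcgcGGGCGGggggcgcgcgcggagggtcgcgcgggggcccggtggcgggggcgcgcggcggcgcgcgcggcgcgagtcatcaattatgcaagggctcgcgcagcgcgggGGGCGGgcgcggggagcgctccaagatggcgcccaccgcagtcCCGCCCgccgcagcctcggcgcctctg
Scn4b, chr8:54343623-54343922, plus strand: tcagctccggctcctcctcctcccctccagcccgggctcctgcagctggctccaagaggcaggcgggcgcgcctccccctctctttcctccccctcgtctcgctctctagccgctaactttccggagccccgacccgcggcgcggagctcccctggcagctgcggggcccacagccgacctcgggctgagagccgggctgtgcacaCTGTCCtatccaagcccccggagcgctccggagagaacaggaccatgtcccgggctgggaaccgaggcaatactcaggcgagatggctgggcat

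The windows of Scn2a and Scn3a held none of the 6 motifs, and neither did those of Scn9a and Scn2b, which are not shown. Their GC content was 39.3% in Scn2a, 43.3% in Scn3a, 56% in Scn9a and 39% in Scn2b, against a median of 51.7% over 33469 promoters. The Scn8a window was 84.7% GC with 60 CpG dinucleotides, more than in 99.9% of promoters, and held 7 GGGCGG matches, a motif present in 33.1% of promoters. The Scn4b window was 70% GC with 24 CpG and held GGACAG once, on the minus strand, a motif found in 21.7% of promoters. The TATA box letters were found in 14.2% of all promoters, the CCAAT letters in 37.5%, the cyclic AMP letters in 21.2% and the left REST letters in 6.78%. A match is only a run of letters, and its absence from these windows says nothing of the factor.

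The deposited values are log2 expression after robust multi-array averaging (RMA), and they ran from 3.75 to 14.1 with array medians between 7.07 and 7.20. The first principal component of all probe sets carried 58.0% of the variance between arrays and the second 10.8%. Ward clustering on the first 5 components gave 3 array sets, called A (14 arrays), B (10 arrays) and C (36 arrays). Every treatment had arrays in sets A and C, and all but permethrin 10 mg/kg had arrays in set B. Sets A and B together were exactly the rats numbered 1 to 3 of each dose group and 1 to 6 of vehicle. The rats were dosed in cohorts on different days. No cohort is given in the labels, and the sets are therefore described only by their arrays. Of the markers of cortical excitatory neurons, Slc17a7, their vesicular glutamate transporter, averaged 12.5, Neurod6 9.13 and Tbr1 8.83. Of those of inhibitory neurons, Gad1, an enzyme of GABA synthesis, averaged 12.0, Sst 11.1, Slc32a1 10.5, Pvalb 10.0 and Gad2 9.24. Of those abundant in striatal neurons, Ppp1r1b averaged 11.3, Drd1 9.27, Drd2 9.06, Rgs9 8.98 and Adora2a 8.58. The levels of these lists overlapped.

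Scn2a, the alpha subunit of initial segments and axons of excitatory neurons, averaged 10.6 over all arrays, brighter than 94.1% of probe sets. Brightness depends on the probes as well as on the transcript, so it ranks a probe set among all others only loosely and no subunit is set against another by it. In vehicle rats Scn2a ran between 9.29 and 11.2 with a median of 10.8. Its medians were 10.8, 10.8 and 10.7 for deltamethrin at 0.3, 1 and 3 mg/kg, with ranges of 10.0 to 11.3, 9.28 to 11.1 and 10.1 to 10.9. They were 10.9, 10.8 and 10.7 for permethrin at 1, 10 and 100 mg/kg, with ranges of 9.17 to 11.2, 9.11 to 11.1 and 8.80 to 11.02. Each range overlapped that of vehicle, and at every one of the 6 doses 5 of 8 rats exceeded the mean of the vehicle rats. On the log2 scale Scn2a differed from vehicle by 0.13 ± 0.27 (SE) at 0.3 mg/kg deltamethrin, −0.02 ± 0.27 at 3 mg/kg and −0.18 ± 0.27 at 100 mg/kg permethrin, all smaller than their errors.

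Scn1a, whose loss in inhibitory interneurons underlies Dravet syndrome in humans, averaged 9.74 and was brighter than 87.9% of probe sets. Its values were 8.78 to 10.4 in vehicle rats, with a median of 10.1. Its medians were 10.0, 9.95 and 9.85 over the rising deltamethrin doses and 10.0, 9.94 and 9.79 over the rising permethrin doses. The lowest value of all, 8.17, came from a rat at 100 mg/kg permethrin, and the highest, 10.8, from a rat at 0.3 mg/kg deltamethrin. The difference from vehicle was −0.08 ± 0.27 at 3 mg/kg deltamethrin, −0.24 ± 0.27 at 10 mg/kg permethrin and −0.21 ± 0.27 at 100 mg/kg permethrin. The last value rested on 1 array, since without replicate 2 of that group the difference was 0.0018.

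Scn3a, the alpha subunit that is most abundant in the fetal brain, was still brighter than 77.3% of probe sets in these adults, with a mean of 8.86. It ran from 8.14 to 9.44 in vehicle rats (median 9.06), with medians of 8.98, 8.92 and 9.003 at rising deltamethrin doses and 9.01, 9.05 and 9.004 at rising permethrin doses. Vehicle had the highest group mean, 8.95 ± 0.42 (SD, n = 12), and permethrin 1 mg/kg the lowest, 8.71 ± 0.70 (SD, n = 8). Those 2 means, the extremes of the 7, differed by 0.25, less than the SD within either group.

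**Figure D1:**
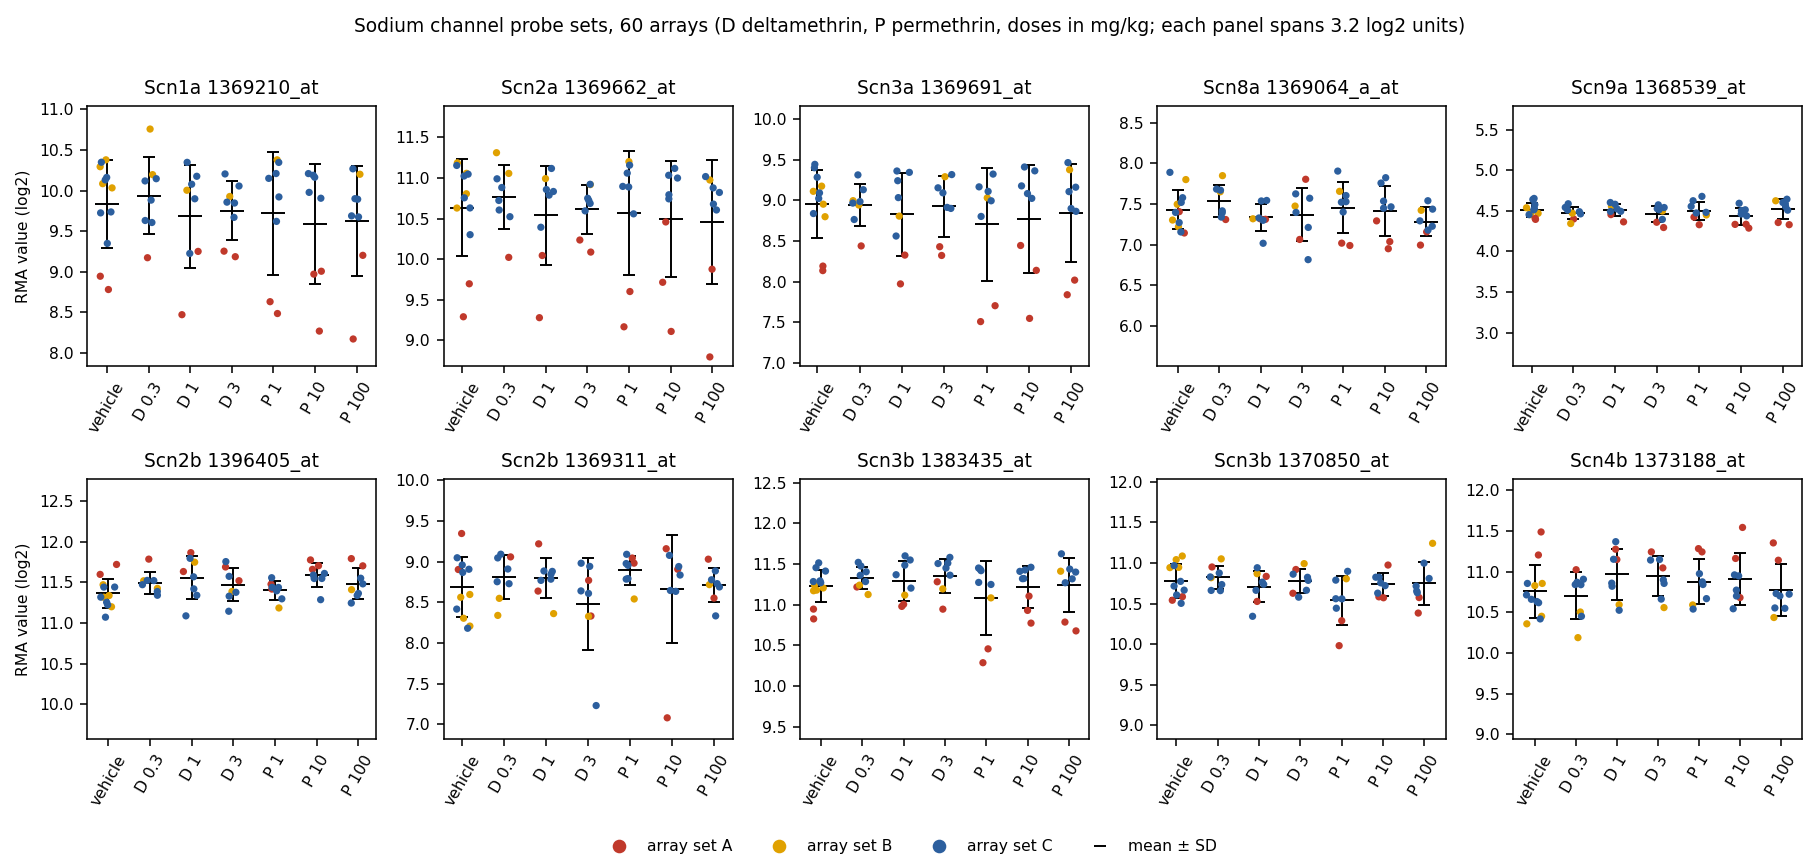
RMA values (log2) of the 10 sodium channel probe sets in each of the 60 arrays, by treatment, with the mean and SD of each group as a black bar. Each panel has its own axis of the same span. The red points (array set A) are the lowest ones of Scn2a and Scn3a in every treatment. In all 60 combinations of probe set and dose group the range overlaps that of vehicle.

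Scn8a, the alpha subunit of mature initial segments and nodes of Ranvier, averaged 7.40, close to the middle of all probe sets (54.3% were dimmer). Its vehicle range was 7.14 to 7.89 with a median of 7.40. Its medians were 7.53, 7.32 and 7.44 for deltamethrin, from the lowest dose up, and 7.52, 7.46 and 7.26 for permethrin. At 100 mg/kg permethrin 2 of 8 rats exceeded the vehicle mean and the difference was −0.15 ± 0.11 (limma p = 0.192, adjusted p = 1.00). Scn9a, the alpha subunit of peripheral nociceptors, was among the dimmest probe sets, with a mean of 4.49 and only 3.5% of probe sets below it. All of its 60 values lay between 4.29 and 4.68, a range of 0.39, and its group means spanned 0.092. A value this low cannot be read as expression, and the narrow intervals of Scn9a are those of a probe set near the floor of the table.

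Scn2b, whose beta subunit is joined to the alpha subunit by a disulfide bond, had the brightest of the 10 probe sets (mean 11.5, brighter than 97.7% of probe sets). The range was 11.1 to 11.7 in vehicle rats with a median of 11.3. The medians were 11.5, 11.6 and 11.5 over rising deltamethrin doses and 11.4, 11.6 and 11.4 over rising permethrin doses. Vehicle had the lowest mean of the 7 groups, which 5 to 7 of 8 rats exceeded at each dose. The difference was 0.19 ± 0.082 at 1 mg/kg deltamethrin (limma p = 0.0234, adjusted p = 1.00) and 0.22 ± 0.082 at 10 mg/kg permethrin (limma p = 0.00841, adjusted p = 0.961). These middle doses gave the largest Scn2b values of each compound, 0.11 ± 0.082 being found at 3 mg/kg deltamethrin and 0.12 ± 0.082 at 100 mg/kg permethrin. At 0.3 mg/kg deltamethrin it was 0.13 ± 0.082 and at 1 mg/kg permethrin 0.035 ± 0.082. The 6 differences share the same 12 vehicle rats.

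The other Scn2b probe set was dimmer (mean 8.72) and gave other signs. It differed from vehicle by 0.12 ± 0.18, 0.11 ± 0.18 and −0.21 ± 0.18 at rising deltamethrin doses, and by 0.20 ± 0.18, −0.032 ± 0.18 and 0.023 ± 0.18 at rising permethrin doses. Single arrays weighed heavily in it. At 3 mg/kg deltamethrin 1 rat had 7.23 while the other 7 had 8.33 to 8.98, and at 10 mg/kg permethrin 1 rat had 7.08 while the other 7 had 8.64 to 9.16. Without that deltamethrin rat (replicate 4) the difference at 3 mg/kg was −0.034.

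Scn3b, whose beta subunit binds without a disulfide bond, had a brighter probe set (mean 11.2) and a dimmer one (mean 10.7). The brighter ran from 10.8 to 11.5 in vehicle rats with a median of 11.3, and its medians were 11.3, 11.3 and 11.4 at rising deltamethrin doses and 11.3, 11.3 and 11.4 at rising permethrin doses. The dimmer had the lowest p of any negative difference. At 1 mg/kg permethrin its values were 9.98 to 10.9 (median 10.6), against 10.5 to 11.1 (median 10.7) in vehicle rats. The ranges overlapped, with 3 of the 8 dosed rats below the lowest vehicle rat and 3 over the mean of vehicle. The difference was −0.24 ± 0.094 (limma p = 0.0133, adjusted p = 1.00), and −0.15 ± 0.12 in the brighter probe set, which gave −0.037 without replicate 2 of that group. At 10 and 100 mg/kg permethrin the dimmer one differed by −0.046 ± 0.094 and −0.030 ± 0.094, so the low value did not extend to higher doses.

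Scn4b, the beta subunit that promotes resurgent current and is abundant in the striatum, averaged 10.8. Its vehicle range was 10.4 to 11.5 with a median of 10.7. Its medians were 10.84, 11.004 and 10.97 for deltamethrin, from the lowest dose up, and 10.9, 10.9 and 10.7 for permethrin. Its differences from vehicle were −0.054, 0.21 and 0.19 (SE 0.14 each) over the rising deltamethrin doses, with limma p = 0.124 and p = 0.171 at 1 and 3 mg/kg. With deltamethrin at 1 and at 3 mg/kg 6 of 8 rats exceeded the mean of vehicle, and with permethrin at 100 mg/kg 2 of 8 did. The deltamethrin values depended on the arrays read. In array set C alone, with 5 rats at each dose and 6 vehicle rats, they were 0.30 ± 0.11 at 1 mg/kg (limma p = 0.0136, adjusted p = 0.994) and 0.29 ± 0.11 at 3 mg/kg (limma p = 0.0146, adjusted p = 1.00). In set A alone they were −0.13 and −0.20, from 2 rats at each dose and 2 vehicle rats. The ranges overlapped there, and so few arrays do not settle the sign.

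**Figure D2:**
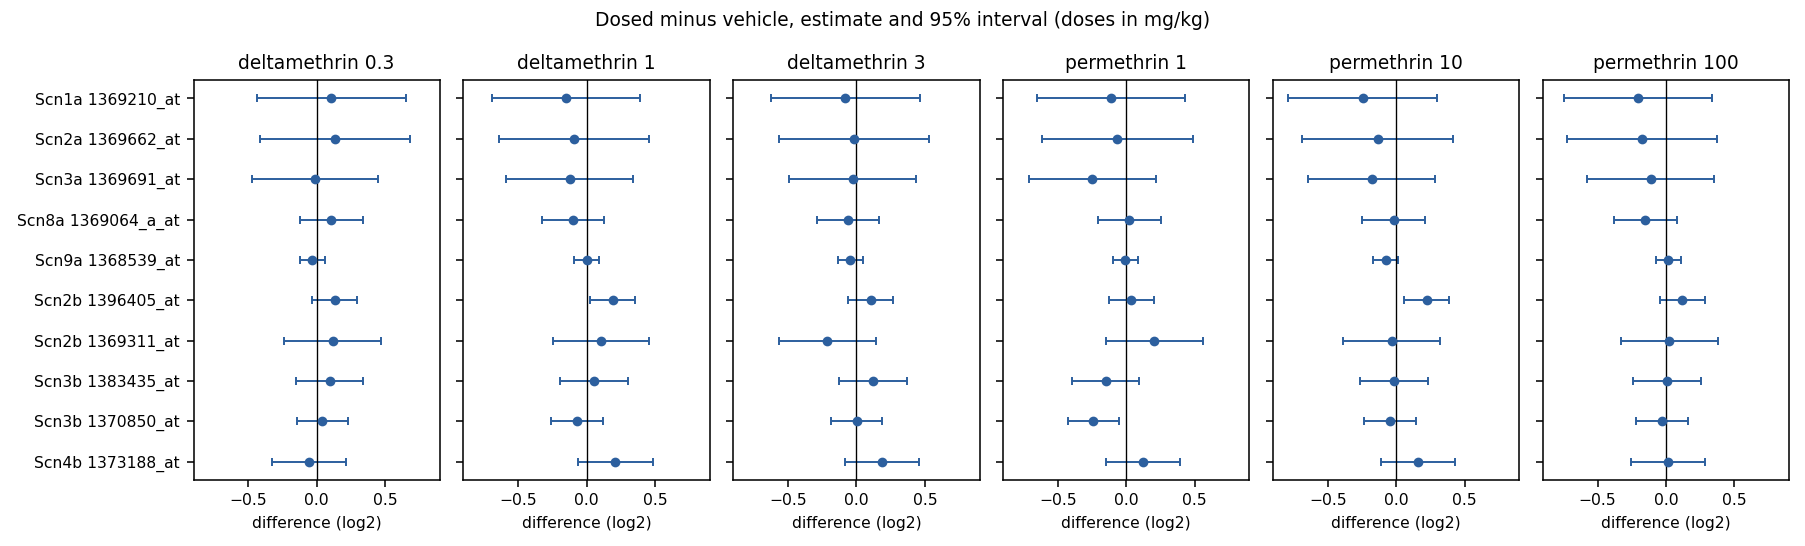
Difference from vehicle (log2) of each of the 10 probe sets at the 6 doses, with 95% confidence intervals from the limma fit of all 60 arrays. Of the 60 intervals, 3 leave out 0, the brighter Scn2b probe set for deltamethrin at 1 mg/kg and permethrin at 10 mg/kg and the dimmer Scn3b probe set at 1 mg/kg permethrin.

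In limma, 0 of 10 sodium channel probe sets passed an adjusted p of 0.05 at any of the 6 doses, and neither did any of the 31042 probe sets, a background of 0% in each of the 14 comparisons made. At an unadjusted p under 0.05, 0 of 10 passed at 0.3 mg/kg deltamethrin (0.751% of all probe sets), 1 at 1 mg/kg (2.24%) and 0 at 3 mg/kg (1.36%). For permethrin 1 passed at 1 mg/kg (1.18%), 1 at 10 mg/kg (3.48%) and 0 at 100 mg/kg (1.24%). With 10 probe sets, 1 is the smallest count that can differ from 0, and these counts are no result about the subunits. The 60 differences ran from 0.842-fold to 1.17-fold, with a median size of 0.10 on the log2 scale, and every interval lay within 2-fold of vehicle. For 42 of the 60 the interval lay within 0.5 on the log2 scale. The widest intervals, down to 0.579-fold and up to 1.60-fold, belonged to Scn1a and Scn2a. The medians of the 10 differences were 0.10, −0.036 and −0.022 at rising deltamethrin doses and −0.036, −0.039 and −0.011 at rising permethrin doses, where the medians over all probe sets lay between −0.0095 and 0.0055.

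A linear trend over mg/kg was fitted for each compound on its dosed rats and the 12 vehicle rats. For deltamethrin 0 of 10 probe sets were called (background 0%), and 0 of 10 had an unadjusted p under 0.05, against 1.36% of all probe sets. The lowest p were those of Scn4b with a slope of 0.072 ± 0.042 per mg/kg (limma p = 0.0974), the dimmer Scn2b probe set with −0.085 ± 0.053 (limma p = 0.115, −0.023 without replicate 4 of 3 mg/kg) and the brighter Scn3b probe set with 0.031 ± 0.028 (limma p = 0.270). For permethrin 0 of 10 were called and 0 of 10 had an unadjusted p under 0.05, against 0.696% of all probe sets. Scn8a had the lowest p there, with −0.0016 ± 0.0010 per mg/kg (limma p = 0.135). In the test for a difference at any dose, 0 of 10 passed unadjusted for deltamethrin (0.725% of all) and 1 for permethrin (1.23% of all), the brighter Scn2b probe set (limma p = 0.0482, adjusted p = 1.00).

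The compounds were compared directly at 1 mg/kg of each, and at the doses below, at and above the behavioral no-effect level. The highest doses were not matched in behavioral effect, since the paper ranks permethrin at 100 mg/kg above deltamethrin at 3 mg/kg. No sodium channel probe set was called in these 4 comparisons (background 0%). At 1 mg/kg 0 of 10 had an unadjusted p under 0.05 (2.73% of all probe sets), the largest difference, deltamethrin minus permethrin, being 0.21 ± 0.13 in the brighter Scn3b probe set (95% interval −0.063 to 0.48). Without replicate 2 of permethrin 1 mg/kg it was 0.093. For deltamethrin at 0.3 mg/kg against permethrin at 1 mg/kg 1 of 10 did (2.41% of all), the dimmer Scn3b probe set, with 10.66 to 11.05 in deltamethrin rats and 9.98 to 10.9 in permethrin rats. The difference was 0.28 ± 0.10 (95% interval 0.076 to 0.49, limma p = 0.00830, adjusted p = 0.980), and that of the brighter probe set was 0.25 ± 0.13, or 0.13 without the same permethrin rat. In set C the dimmer one averaged 10.75 in 5 deltamethrin rats and 10.65 in 5 permethrin rats. It averaged 10.95 in 1 and 10.13 in 2 such rats in set A, and 10.93 in 2 and 10.80 in 1 in set B. Between deltamethrin at 1 mg/kg and permethrin at 10 mg/kg 0 of 10 did (1.02% of all), and Scn9a had the lowest p with 0.075 ± 0.050. Between deltamethrin at 3 mg/kg and permethrin at 100 mg/kg 0 of 10 did (0.802% of all), with −0.24 ± 0.19 in the dimmer Scn2b probe set, 0.17 ± 0.15 in Scn4b and −0.062 ± 0.050 in Scn9a. The Scn2b value was −0.057 without replicate 4 of deltamethrin 3 mg/kg. All 40 intervals lay within 2-fold, but 25 within 0.5 on the log2 scale, so a smaller difference between the compounds in the others cannot be told from none.

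**Figure D3:**
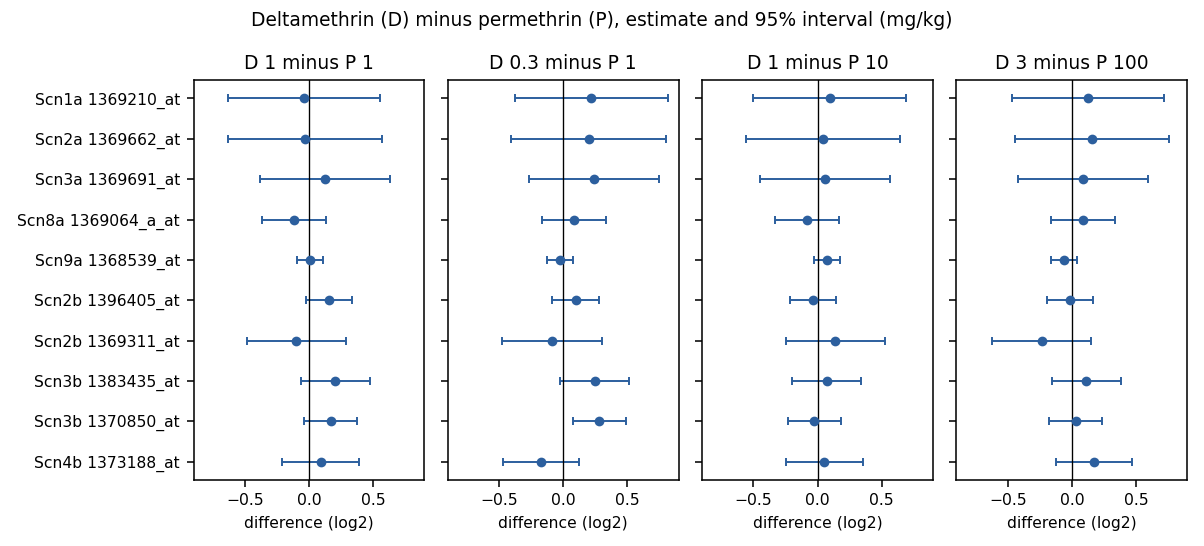
Deltamethrin minus permethrin (log2) for the 10 probe sets at the 4 pairs of doses, with 95% confidence intervals from limma. Of the 40 intervals 1 leaves out 0, the dimmer Scn3b probe set for deltamethrin at 0.3 mg/kg against permethrin at 1 mg/kg.

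The spread between arrays of 1 treatment was far larger than any dose difference for 3 alpha subunits. The SD within treatments was 0.61 for Scn1a, 0.61 for Scn2a and 0.52 for Scn3a, higher than for 97.5%, 97.7% and 95.1% of all probe sets, where the median was 0.18. Among the 1000 probe sets nearest in brightness, 95.5%, 96.7% and 88.1% had a lower SD. From the dimmest to the brightest array Scn1a ran over 6.00-fold, Scn2a over 5.71-fold and Scn3a over 3.88-fold. The coefficient of variation of linear values gave the same order of magnitude, 35.0% for Scn1a, 32.4% for Scn2a and 29.9% for Scn3a. The other probe sets had SDs of 0.39 (the dimmer Scn2b probe set), 0.30 (Scn4b), 0.27 and 0.21 (Scn3b), 0.25 (Scn8a), 0.18 (the brighter Scn2b probe set) and 0.097 (Scn9a). Treatment accounted for 2.46% of the variance of Scn2a and 3.65% of that of Scn1a, and at most for 16.9%, in the brighter Scn2b probe set, where the median over all probe sets was 5.73%.

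**Figure D4:**
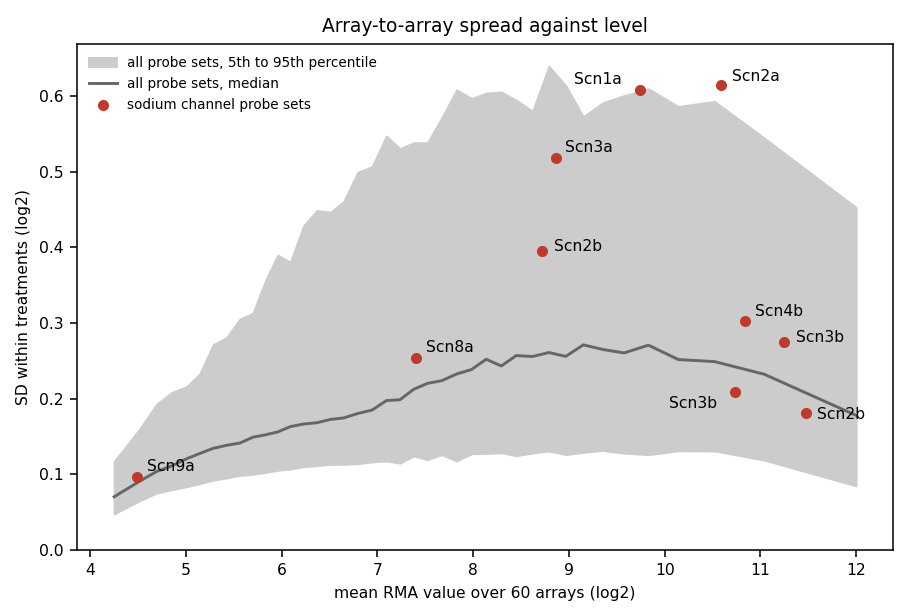
SD within treatments against the mean RMA value (both log2) for the 10 sodium channel probe sets (red), with the median and the 5th to 95th percentile of all 31042 probe sets in 40 bins of level. Scn2a lies above the band, Scn1a at its upper edge, and Scn9a at the dim end.

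Most of that spread lay between the array sets. Since the sets were formed from all probe sets of these arrays, their differences are a description and were not tested. The sets accounted for 75.0% of the variance of Scn1a, 75.7% of Scn2a and 77.4% of Scn3a, against a median of 36.6% over all probe sets. Scn1a averaged 8.84 ± 0.38 in set A (SD, n = 14), 10.2 ± 0.24 in set B (n = 10) and 9.95 ± 0.28 in set C (n = 36). Scn2a averaged 9.67 ± 0.48, 11.01 ± 0.20 and 10.82 ± 0.21 in sets A, B and C, and Scn3a 8.07 ± 0.32, 9.05 ± 0.19 and 9.11 ± 0.22. Relative to set C, set A thus had 0.463-fold Scn1a, 0.451-fold Scn2a and 0.486-fold Scn3a, and a level lower by more than 1 on the log2 scale was seen for 3.75% of all probe sets. Scn3a reached at most 8.44 in set A and was at least 8.56 in sets B and C. The share of all probe sets that separate in this way was not counted, so this is no trait of Scn3a alone.

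The beta subunits did not follow this pattern as a group. Scn3b was lower in set A than in set C by 0.54 in the brighter probe set and by 0.13 in the dimmer. Scn4b was higher, at 11.2 ± 0.21 in set A against 10.5 ± 0.20 in set B and 10.8 ± 0.21 in set C, and so was the brighter Scn2b probe set, at 11.7 ± 0.13 in set A against 11.4 ± 0.16 in each of the other 2 sets. The dimmer Scn2b probe set was not, at 8.79 in set A against 8.45 in set B and 8.77 in set C. Scn8a was lower in set A than in set C by 0.25 and Scn9a by 0.18. With the 3 sets as a block in the fit, chosen after the data were seen, the SE of a dose difference fell to 0.14 for Scn1a and Scn2a. With it 0 of 10 probe sets were called in each of the 14 comparisons. At an unadjusted p under 0.05 up to 3 of 10 passed in a comparison, and 12 over the 14 comparisons. Without the block at most 1 passed in any comparison. The share of all probe sets is not set beside these counts, which are no result about the subunits. With that block Scn1a differed from vehicle by 0.070 ± 0.14 at 3 mg/kg deltamethrin and −0.055 ± 0.14 at 100 mg/kg permethrin.

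Marker genes moved between the sets as well. The summed linear level of 3 neuronal markers (Rbfox3, Snap25 and Syt1) ran from 9226 to 14712 in set A, from 14352 to 17657 in set B and from 13235 to 16098 in set C. Snap25 was lower in set A than in set C by 0.52 and Syt1 by 0.69, while Rbfox3 was higher by 0.31. The summed level of 4 microglial markers was 1805 to 2581 in set A, 1356 to 1730 in set B and 1369 to 1782 in set C, and that of 4 endothelial and mural markers 2985 to 4111, 2310 to 3021 and 2227 to 3066. These sums follow their brightest gene, and members of 1 list could differ in sign. Set A minus set C was 0.59 for Cldn5 but −0.45 for Rgs5 among the endothelial and mural markers, −1.06 for Aqp4 but 0.72 for Aldh1l1 among astrocyte markers, and −0.89 for Gad2 but 0.59 for Slc32a1 among those of inhibitory neurons. In bulk tissue fewer cells of a type and less RNA per cell cannot be told apart, and the part of these markers in the subunits' differences was not tested.

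The first principal component was made from all probe sets, these included. Within the sets, Scn1a, Scn2a, Scn3a and Scn3b still followed it. Because the arrays fall into separate sets, correlations are given within each set, for 30 relations (10 probe sets in 3 sets) with 100000 permutations each and adjustment over the 30. In set C (36 arrays) r was −0.92 for Scn1a (rho −0.90), −0.78 for Scn2a (rho −0.75), −0.87 for Scn3a (rho −0.84) and −0.78 for the brighter Scn3b probe set (rho −0.78), each with permutation p = 1e-05 for r and for rho, the smallest that the permutations can give, and adjusted p = 6e-05. Without the 2 arrays farthest from the median of the component, these r were −0.90, −0.76, −0.83 and −0.76. In set A (14 arrays) r was −0.76, −0.85, −0.95 and −0.87 in the same order of probe sets, with adjusted permutation p between 6e-05 and 0.00570. In set B (10 arrays) none of the 10 probe sets passed the adjustment. Scn9a stayed between −0.018 and 0.065 in the 3 sets, and Scn4b was 0.46 in set A and 0.034 in set C. The share of all probe sets that follow the component as closely was not counted. The p-values therefore do not set these subunits apart from other probe sets.

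**Figure D5:**
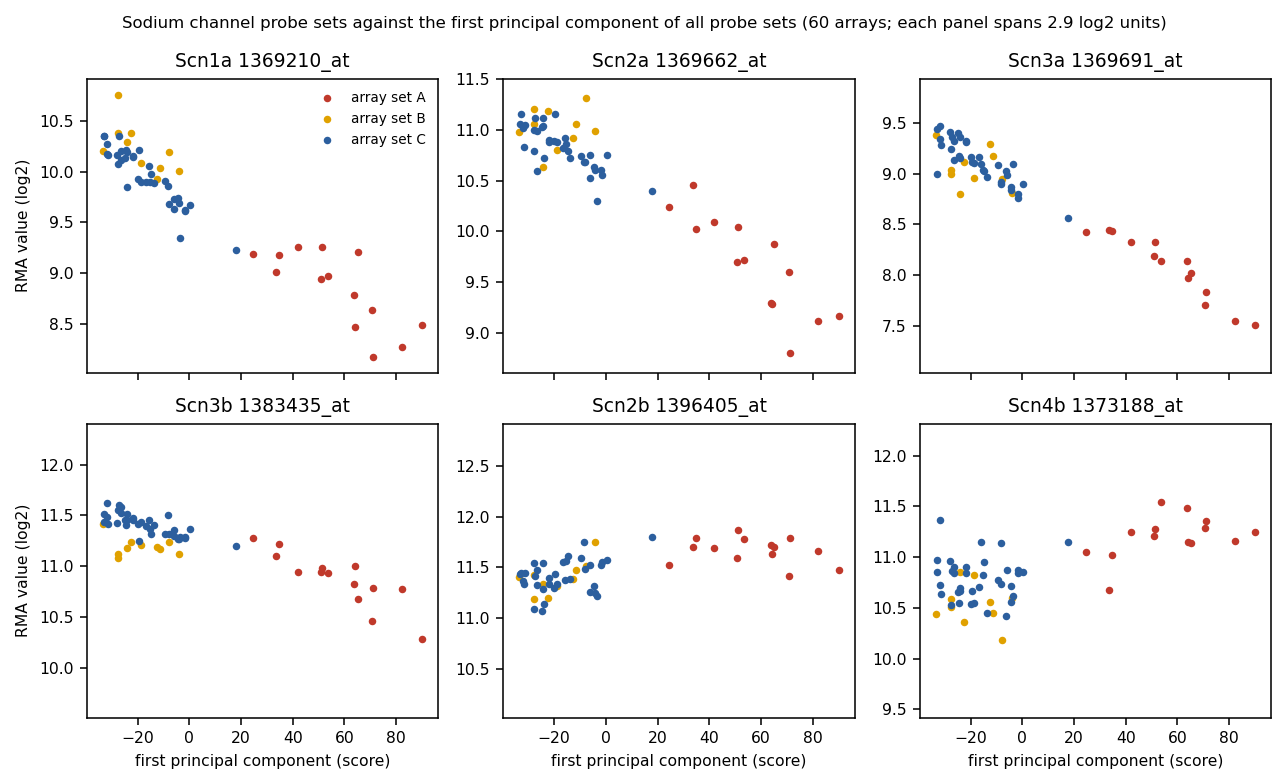
RMA values (log2) of 6 sodium channel probe sets against each array's score on the first principal component of all probe sets, colored by array set. Scn1a, Scn2a, Scn3a and Scn3b fall as the score goes up, within set A and within set C as well as between the sets, while Scn2b and Scn4b are higher in set A.

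The brightest probe sets of the 8 genes form 28 pairs, tested in each of the 3 sets (84 relations). In set C 8 pairs passed an adjusted permutation p of 0.05, all with positive r, in set A 4 pairs and in set B 2. Scn1a, Scn2a, Scn3a and Scn3b each followed the first principal component in sets A and C. The share of other pairs of probe sets that would pass was not counted, so these counts are no result about the subunits. Scn1a and Scn2a had r = 0.88 in set C (rho 0.85, 0.83 without the 2 farthest arrays, adjusted permutation p = 0.00014), 0.89 in set A (rho 0.89) and 0.22 in set B (rho 0.30, not passing). Scn1a and Scn3a had r = 0.80 in set C and 0.82 in set A, and Scn2a and Scn3a 0.66 and 0.81. Scn3a and Scn3b, an alpha and a beta subunit, had r = 0.75 in set C (rho 0.74) and 0.85 in set A (rho 0.85). Scn2b and Scn4b, the neighbors on chromosome 8, had r = 0.53 in set C (rho 0.56, adjusted permutation p = 0.00764) and 0.12 in set A. Scn2a and Scn4b ran opposite in set B (r = −0.86, rho −0.70, −0.65 without the 2 farthest arrays, adjusted permutation p = 0.0135 for r and 0.154 for rho), on 10 arrays, and had −0.069 in set C.

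Both probe sets of Scn3b moved together, with r of 0.94 in set A, 0.94 in set B and 0.71 in set C (adjusted permutation p of 3e-05, 0.00032 and 3e-05 over 6 relations). Those of Scn2b did not, with r of 0.0086, 0.011 and 0.25 (rho 0.29, 0.22 and 0.23) and adjusted permutation p of 0.977, 0.977 and 0.221. A Scn2b value therefore depends on which probe set is read.

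Scn4b was correlated with markers of striatal neurons in sets A and C. In set C its r was 0.73 with Adora2a (rho 0.68), 0.60 with Ppp1r1b (rho 0.44), 0.58 with Drd2 (rho 0.55) and 0.60 with Drd1 (rho 0.54), with adjusted permutation p of 0.00015 for Adora2a and 0.000386 for the other 3 (15 relations). Those r were 0.55 to 0.70 without the 2 farthest arrays. In set A r was 0.90 with Adora2a, 0.89 with Drd2 and 0.85 with Ppp1r1b, but −0.16 with Drd1. Rgs9 gave r = 0.67 in set A (rho 0.61), 0.094 in set B (rho −0.22) and 0.41 in set C (rho 0.32, adjusted permutation p = 0.0902 for rho). In set B (10 arrays) 0 of the 5 markers passed, with r between 0.094 and 0.49. The summed level of the 5 striatal markers measured ran from 4503 to 7394 in set A, from 2245 to 5432 in set B and from 3491 to 5576 in set C. By treatment its median was 4526, 4720 and 5284 at rising deltamethrin doses, 4516, 4540 and 4450 at rising permethrin doses, and 4589 in vehicle rats. Their part in the Scn4b differences at 1 and 3 mg/kg deltamethrin was not tested.

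The genes most like each subunit were sought over all 60 arrays, after taking out the mean of each treatment within set A and within the other arrays together. They are a description of these arrays, which share the first principal component. Scn1a was most like Plcb4 (r = 0.95), Epha4 (0.94) and Mal2 (0.93). Scn2a was most like Ttll7 (0.88), Rc3h2 (0.87) and Camsap2 (0.86), and Scn3a most like Dnajb4, Ncoa7 and Mbnl1 (0.84 each). Scn3b was most like Sh3kbp1 (0.90), Ufd1 (0.84) and Dcun1d4 (0.83). Scn8a came closest to Dlg2 (0.76), which encodes a synaptic scaffold protein, then to Aak1 and Wdr7 (0.71 each). Scn2b came closest to Asb1 (0.80), Cdk10 (0.79) and Cenpv (0.79), and Scn4b to Pou3f1 (0.78), Rasgrp2 (0.75) and Pde1b (0.74). For Scn9a no gene exceeded 0.57 (Capn6).

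Of 39 genes on 4 lists of channel partners, 33 had a probe set of their own: other channel subunits with the leak channel Nalcn, fibroblast growth factor homologous factors, proteins of initial segments and nodes, and modulators of the channel such as kinases, ubiquitin ligases and calmodulin. In limma 0 of 33 were called at any dose (background 0%). At 3 mg/kg deltamethrin 1 of 33 had an unadjusted p under 0.05 (1.36% of all probe sets), and so did 1 of 33 at 100 mg/kg permethrin (1.24% of all). The gene was Nedd4l both times, a ubiquitin ligase that removes sodium channels from the membrane, with 0.21 ± 0.072 at 3 mg/kg deltamethrin (limma p = 0.00477, adjusted p = 1.00) and 0.20 ± 0.072 at 100 mg/kg permethrin (limma p = 0.00889, adjusted p = 1.00). The lower doses gave 0.079 and 0.19 for deltamethrin and 0.083 and 0.17 for permethrin (SE 0.072 each), against shared vehicle rats. The study already lists this Nedd4l probe set as dose-responsive to deltamethrin, from the same arrays. The gene lists were drawn up with earlier results known, so the Nedd4l values are no independent finding. The next genes by p at those highest doses were Scn10a (−0.078 ± 0.054) and Rangrf (0.12 ± 0.11) for deltamethrin, and Kcnq3 (−0.19 ± 0.12) and Rangrf (0.15 ± 0.11) for permethrin. The medians of the 33 differences were −0.024 and −0.030 for deltamethrin at 3 mg/kg and permethrin at 100 mg/kg, where those of all probe sets were −0.0054 and 0.0055. Of 43 cell type markers measured, 0 were called at either dose and 0 had an unadjusted p under 0.05.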

How the data were processed

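The authors scanned 1 Affymetrix Rat Genome 230 2.0 array per rat and deposited 1 table of log2 values made with RMA (RMAExpress per the methods), which corrects background, normalizes by quantiles and summarizes probes. The labels name 12 vehicle rats and 8 per dose, each a separate animal. Probe sets were named from the platform annotation: 20826 have 1 symbol, 436 several and 9780 none. All 60 arrays were fitted together in limma 3.58.1 (R 4.3.3), without a block, and p-values were adjusted by Benjamini-Hochberg over all 31042 probe sets at 0.05. Each dose, any dose, a linear trend and 4 pairs of doses between the compounds were tested. Both steps were tested on simulated data. Correlations, clustering and figures used Python 3.11.15, numpy 2.4.6, scipy 1.17.1, pandas 2.3.3 and matplotlib 3.10.9. Arrays have no read depth, so their number limits precision. The sodium channel genes and all gene lists were chosen with earlier results of these data known. Named in full were the 3 sodium channel probe sets with the lowest p in a comparison, up to 3 list genes, by p, at the highest dose of each compound, and the 3 genes most like each subunit. Alternatives changed the scale, centering, brightness filter, variance prior, arrays, array sets, first principal component, replicate number and dose scale. The qRT-PCR and cell culture data of the study were not analysed here.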

Additional observations from a re-analysis of the deposited data

Results flagged for a closer look

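In 5 of 60 dose groups of 8 arrays, 1 array stood apart from the other 7 by Dixon's test, where chance flags about 1 in 20 groups. The dimmer Scn2b probe set had 7.23 in replicate 4 of deltamethrin 3 mg/kg, against 8.33 to 8.98 in the others, and 7.08 in replicate 3 of permethrin 10 mg/kg, against 8.64 to 9.16. The brighter one had 11.8 in replicate 1 of deltamethrin 0.3 mg/kg, against 11.3 to 11.5, and 11.3 in replicate 4 of permethrin 10 mg/kg, against 11.5 to 11.8. Scn8a had 7.02 in replicate 7 of deltamethrin 1 mg/kg, against 7.30 to 7.54. Of these arrays 2 were in set A and 3 in set C.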

How the results depend on the processing

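No sodium channel probe set was called in any alternative fit or with any 1 of 60 arrays left out. Of the 16 alternative settings, the other probe set of a gene and the coefficient of variation involved no new fit. The lowest adjusted p in limma was 0.961 as reported, 0.127 over the alternatives and 0.696 with an array left out. Over all 31042 probe sets the calls were 0 in each comparison as reported and at most 11, with the 3 array sets as a block and the first component as covariate. Fits with the 3 sets as a block or on set C alone were chosen after seeing the data. Over 62 results, 769 of 801 values under alternatives and 3645 of 3660 with an array left out kept their direction and their side of the threshold. No adjusted p fell below 0.05 in any fit, so no value changed side. The totals also hold counts of calls, all 0, and F values without a sign, and are no measure of robustness. All the remaining values changed sign, and the cause was not tested. Within set A, which has only 1 to 3 arrays per group, these were at 1 mg/kg deltamethrin Scn8a (0.039) and Scn4b (−0.13), at 3 mg/kg the brighter Scn2b (−0.055) and Scn4b (−0.20), at 1 mg/kg permethrin the brighter (−0.21) and dimmer Scn2b (−0.11), at 10 mg/kg Scn4b (−0.22) and the brighter Scn3b (0.051), and at 100 mg/kg the brighter Scn3b (−0.15). Also within set A the deltamethrin slope of Scn4b was −0.039, the permethrin slope of Scn9a −0.00024, the difference of deltamethrin 1 from permethrin 10 mg/kg in Scn8a 0.22 and that of deltamethrin 3 from permethrin 100 mg/kg in Scn4b −0.10. Outside set A the brighter Scn3b was 0.016 at 1 mg/kg permethrin and 0.085 at 10 mg/kg, and the dimmer Scn2b −0.072 for deltamethrin 1 against permethrin 10 mg/kg. At 10 mg/kg permethrin the brighter Scn3b was also 0.012 with median-centered arrays, 0.089 with set A as a block, 0.082 with the first component as covariate, 0.027 with the 3 sets as a block, 0.0082 with both and 0.016 in set C alone. There Scn4b was −0.0089 with the 3 sets as a block and −0.0039 with the component as well, and in set C alone 0.0018 for deltamethrin 0.3 against permethrin 1 mg/kg. By dose rank the permethrin slope of Scn9a was −0.0035. The other probe set of the gene gave −0.071 (Scn3b, 1 mg/kg deltamethrin), −0.21 (Scn2b, 3 mg/kg deltamethrin), −0.032 (Scn2b, 10 mg/kg permethrin) and −0.030 (Scn3b, 100 mg/kg permethrin). With 1 array left out, the brighter Scn3b ran from −0.052 to 0.049 at 10 mg/kg permethrin and from −0.047 to 0.088 at 100 mg/kg, Scn1a from −0.30 to 0.0018 at 100 mg/kg, and the dimmer Scn2b from −0.088 to 0.21 for deltamethrin 1 against permethrin 10 mg/kg.

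The labels do not say whether rats of the same replicate number belong together. Of 168 pairs of the same number in different groups, 112 had deviations correlated above 0.1. The median r was 0.37 and the lowest −0.82. Pairs of different numbers were not summarized, so these values cannot tell whether the number pairs the rats. With the number as a replicate block 0 probe sets of the 10 were called. The dimmer Scn3b at 1 mg/kg permethrin was −0.32 ± 0.10 (limma p = 0.00248, adjusted p = 0.420). The brighter Scn2b lost its unadjusted p under 0.05, with 0.12 at 1 mg/kg deltamethrin (limma p = 0.166), 0.15 at 10 mg/kg permethrin (limma p = 0.0779) and limma p = 0.136 over any permethrin dose. It was −0.040 at 1 mg/kg permethrin, and the brighter Scn3b 0.032 at 10 mg/kg permethrin.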

Other observations

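Other genes that act with the channel also differed between the array sets. Fgf12, which encodes a fibroblast growth factor homologous factor that binds the alpha subunit, averaged 7.90 in set A, 9.39 in set B and 9.46 in set C, a wider gap than in any of the 8 subunit genes. Nalcn, the sodium leak channel, averaged 9.27, 10.1 and 10.2. Cntnap1, a protein of the paranodal junction, was higher in set A than in set C by 0.70, and Sptbn4, a spectrin of initial segments and nodes, by 0.47. Of 11 genes of initial segments and nodes, 6 were lower in set A than in set C. These are values without a test, since the sets were formed from the same arrays.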
